A study of Mus musculus with 4 samples.

Results

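The mRNA levels of chromatin repressors that keep genes of the 2-cell embryo (2C genes) and retroelements silent were examined in mouse ES cells transfected with Rif1 siRNA. Of 39 listed genes, 38 were found by their name on the array, with 63 probes, out of 30199 names carried by 39429 probes. All cells were E14tg2a, an established mouse ES cell line with no engineered allele, grown in serum medium with LIF and without feeder cells. Total RNA was hybridized to 4 one-color arrays, 1 per condition. The conditions were no treatment, control siRNA of random sequence for 72 h, Rif1 siRNA for 48 h and Rif1 siRNA for 72 h. The title of the untreated sample gives no time. Each difference below is therefore between 2 arrays, with no test and no replicate check, and precision is limited by having so few arrays. The level of a probe is its processed signal over the 75th percentile of that array's spots, and levels are compared between arrays within a probe; where levels of several probes are summed, the sum rests mostly on the brightest.

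Repressors of this kind act through chromatin. KRAB zinc finger proteins recognize retroviral sequences and bring in Trim28, which recruits the H3K9 methyltransferase Setdb1, and HP1 proteins bind the methylated histone. Kdm1a with histone deacetylases removes active marks, Polycomb complexes ubiquitinate H2A or methylate H3K27, and histone chaperones place the nucleosomes that carry the marks. Loss of several of these proteins is known to raise the number of 2C-like cells in ES cell cultures. The comparison asked whether the transcripts of the repressors themselves differed when Rif1, a regulator of replication timing that represses 2C genes, was depleted.

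The siRNA sequences are shown because they define the treatment. The methods name a pair of siRNAs for Rif1, each of 19 bases with a dTdT overhang that is left out here, and the seed (bases 2 to 8) of each antisense strand is in capitals.
Rif1 siRNA number 2, sense: gaaggagccucuagggaaa
Rif1 siRNA number 2, antisense: uUUCCCUAgaggcuccuuc
Rif1 siRNA NC number 1, sense: guguucaaccuuaaaugca
Rif1 siRNA NC number 1, antisense: uGCAUUUAagguugaacac
Of the 63 repressor probes, 0 hold the DNA complement of either seed, against 398 of all 39429 probes. The probes cover 60 bases of a transcript, so this says nothing about the rest of the mRNA.

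The next sequences are those of the Zfp809 and Trim28 probes, since the probes of Zfp809 gave different answers and 1 Trim28 probe was dim. Each probe has 60 bases and is given 5′ to 3′ with its mm9 position from the array files. Of each gene, 1 probe is shown in full and of the other the first 30 bases are shown.
Zfp809, A_55_P2047614 (chr9:22043637-22043696, plus strand, in full): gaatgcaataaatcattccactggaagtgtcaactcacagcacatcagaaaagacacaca
Zfp809, A_52_P68477 (chr9:22047517-22047576, plus strand, first 30 bases): cagtatctgactggactggcaatttgagtg
Trim28, A_51_P323299 (chr7:13615914-13616069, plus strand, in full): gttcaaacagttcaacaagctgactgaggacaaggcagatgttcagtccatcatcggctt
Trim28, A_55_P1984985 (chr7:13609067-13609124, minus strand, first 30 bases): tgtgtgtgttaggagaactgaacatttaac
The A_51_P323299 probe covers 156 bases of the genome and therefore crosses an intron. The A_55_P1984985 probe lies on the strand opposite to Trim28 and was not well above background on any array.

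Before the repressors, the targeted gene was examined. Rif1 was read by 1 probe, A_55_P2015964, with levels of 5.55 (untreated), 5.42 (control siRNA), 2.15 (Rif1 siRNA, 48 h) and 4.15 (Rif1 siRNA, 72 h). These are 39.6% and 76.5% of the control siRNA array. The 2C genes, read by 36 probes, had a summed level of 21.4, 38.0, 525 and 598 on the arrays in the same order, whereas the 19 probes of pluripotency markers summed to 292, 297, 303 and 295. Against control siRNA their log2 differences ran from -0.69 (a Nanog probe) to 0.59 (Pou5f1) at 72 h and from -0.54 (Nanog) to 0.69 (Esrrb) at 48 h, with 0 past 2-fold. The 11 probes of primitive endoderm markers summed to 18.4 to 23.8, most of it from Lama1, and 0 of the 10 that passed the filter were past 2-fold against control siRNA at either time of Rif1 siRNA. Their median log2 difference was -0.57 for control siRNA against untreated cells, where 1 Foxa2 probe was past 2-fold lower, 0.33 for 48 h and -0.18 for 72 h of Rif1 siRNA against control siRNA. The 8 probes of fibroblast markers summed to 3.89 to 4.53, most of it from Thy1, and 0 of the 6 that passed were past 2-fold. The 5 of these that were bright on the arrays compared had a median log2 difference of 0.65 at 72 h and 0.31 at 48 h, up to 0.82 (Col1a2). The part of these cell types in the values below was not tested. In such bulk RNA, fewer cells of a type and less RNA per cell cannot be told apart. Spots well above background made up 58.8% (untreated), 62.8% (control siRNA), 71.5% (Rif1 siRNA, 48 h) and 74.1% (Rif1 siRNA, 72 h) of an array. This share was thus higher on both Rif1 siRNA arrays.

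Of the 63 repressor probes, 60 passed the filter on low signals, and these were well above background on all 4 arrays. The 3 that did not pass were 1 each of Chaf1b, Sumo2 and Trim28, and every one of the 38 genes kept at least 1 probe. In the text below, a gene is represented by its brightest probe that passed, and 14 genes had more than 1.

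Rif1 siRNA at 72 h against control siRNA at 72 h left the repressors close to their control levels, with the exception of 1 Zfp809 probe. Zfp809 encodes a KRAB zinc finger protein that binds the primer binding site of murine leukemia viruses. Its probe A_55_P2047614 was higher by 2.03 on the log2 scale, which is 4.07-fold, and its other probe by 0.08. The other 37 genes lay between -0.31 (Ring1) and 0.27 (Atf7ip), so that none differed by more than 1.24-fold. The median over the 38 genes was -0.06, and that over all 24315 probes well above background on both arrays was -0.07. Thus 1 of 60 repressor probes (1.67%) was past 2-fold, where the share over all 27706 probes that passed the filter was 3.84%. At 1.5-fold it was the same 1 probe, against 7.9% of all probes, and where both arrays had to be well above background, 3.11% of probes were past 2-fold.

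At 48 h of Rif1 siRNA the picture was alike. This comparison uses the same control array, harvested at 72 h, so the times differ and the values at 48 h and 72 h are not independent. Zfp809 probe A_55_P2047614 was higher by 2.02 (4.06-fold) and the other Zfp809 probe by 0.09. The other 37 genes lay between -0.43 (Asf1b) and 0.29 (Atf7ip), at most 1.35-fold. The median over the 38 genes was -0.11, and that over all 24269 probes well above background on both arrays was -0.07. The same Zfp809 probe was again the 1 of 60 past 2-fold and past 1.5-fold, where the shares over all probes were 4.37% and 10.1%.

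The pairs of arrays with the same Rif1 siRNA status gave narrower ranges. Between control siRNA and untreated cells, both without Rif1 siRNA, the 38 genes lay between -0.17 (Morc3) and 0.17 (Zmym2), with a median of -0.05 and 0 probes past 2-fold or 1.5-fold, against 1.63% and 4.12% of all probes. Between 72 h and 48 h of Rif1 siRNA they lay between -0.16 (Suv39h1) and 0.27 (Max), again with 0 past either limit, against 1.18% and 4.17% of all probes. For scale, the differences between control siRNA and untreated cells had an SD of 0.257 over the 22551 probes bright on that pair of arrays. Of the 38 genes, 5 (13.2%) were beyond this at 72 h (Zfp809, Ring1, Hdac3, Hdac2 and Atf7ip), against 27.2% of all bright probes. At 48 h, 5 (13.2%) were beyond it (Zfp809, Asf1b, Chaf1b, Hdac2 and Atf7ip), against 32% of all bright probes. Counted by probe and not by gene, 8 of the 60 repressor probes were beyond it at 72 h and 12 at 48 h. The difference between 2 arrays varied among the repeated spots of a probe with a median SD of 0.0420 at 72 h, which covers the spots of 1 hybridization and not separate cultures.

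**Figure D1:**
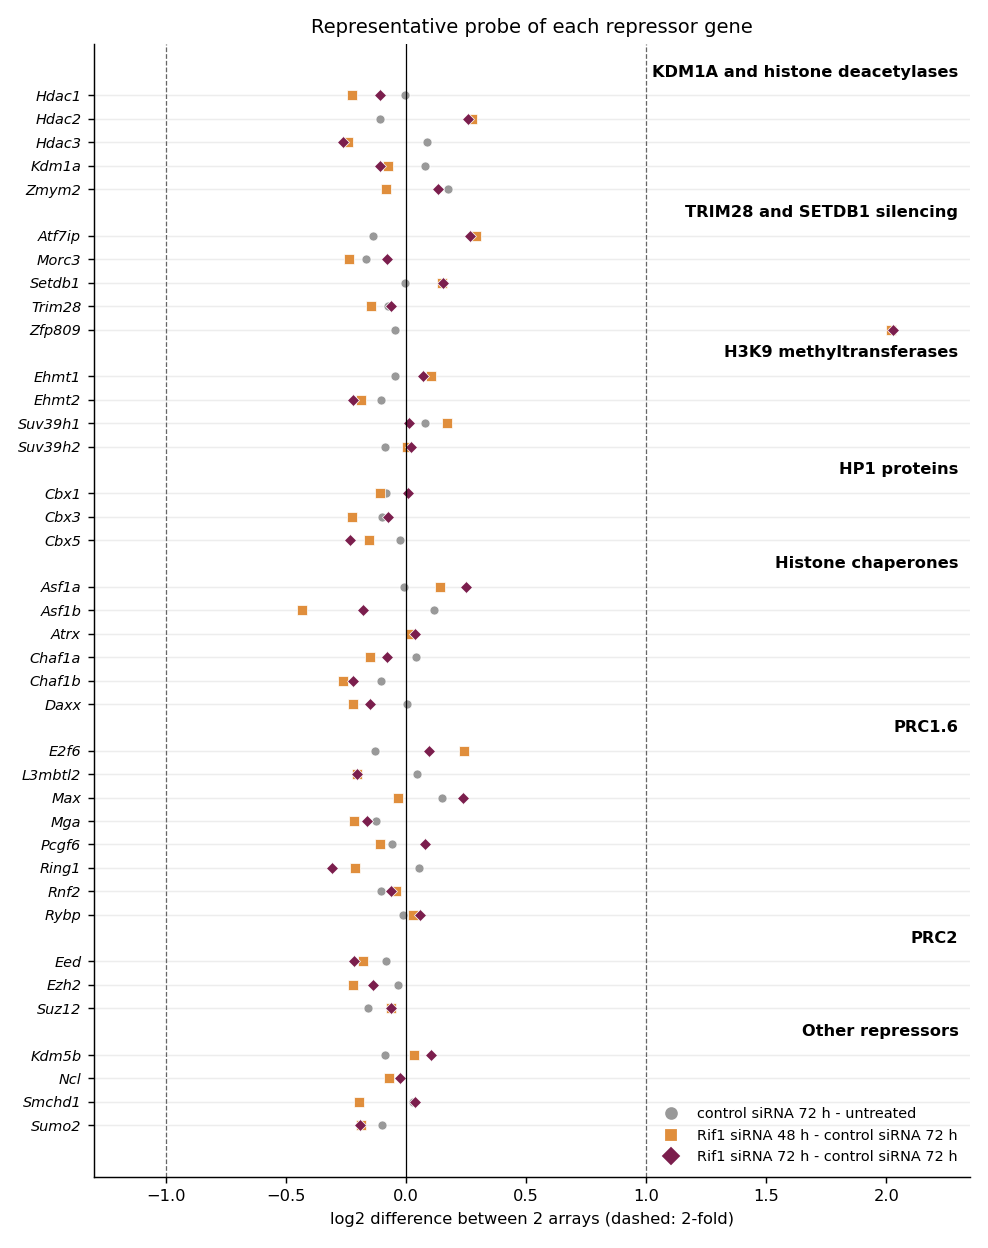
Log2 differences of the representative probe of 38 repressor genes, grouped by role, for control siRNA against untreated cells (gray circles), Rif1 siRNA at 48 h against control siRNA (orange squares) and Rif1 siRNA at 72 h against control siRNA (purple diamonds); dashed lines mark 2-fold. Zfp809 lies at 2.02 and 2.03, and all other points lie between -0.43 and 0.29.

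**Figure D2:**
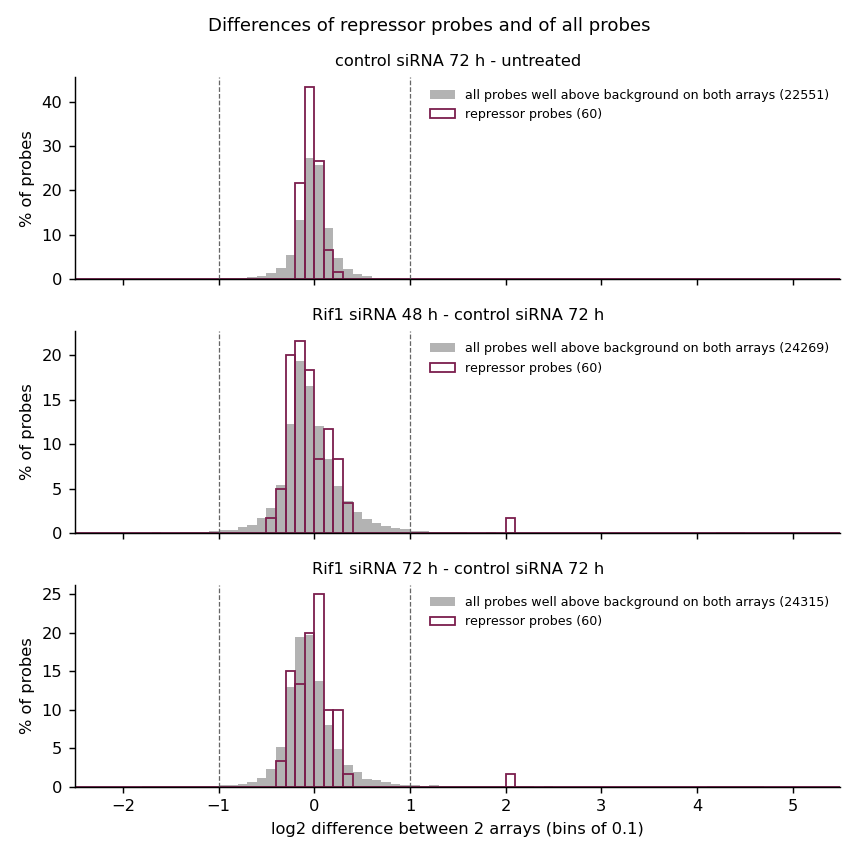
Share of probes (%) by log2 difference, in bins of 0.1, for all probes well above background on both arrays (gray) and for the 60 repressor probes (purple outline), in the same comparisons; the axis ends at -2.5 and 5.5. The repressor probes fall in the center of the distribution, except the Zfp809 probe at 2.02 and 2.03.

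The single probe past 2-fold belongs to the silencing system of Trim28 and Setdb1. The Zfp809 probe A_55_P2047614 had levels of 0.387 (untreated), 0.374 (control siRNA), 1.52 (Rif1 siRNA, 48 h) and 1.52 (Rif1 siRNA, 72 h), so that both Rif1 siRNA arrays were far above both other arrays. The second Zfp809 probe, A_52_P68477, had levels of 0.697, 0.698, 0.743 and 0.739 in the same order, which is 0.08 (log2) at 72 h and 0.09 at 48 h against control siRNA. The 2 probes of Zfp809 therefore disagree, and the rule of the brightest probe took A_55_P2047614, whose mean level was itself raised by the Rif1 siRNA arrays. On the untreated and control siRNA arrays A_52_P68477 was the brighter of the 2. Both probes carry the same RefSeq accession, and the files do not tell which transcript forms each one reads.

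No neighbor of the Zfp809 probe was past 2-fold. Within 250 kb on either side, 26 probes of 20 genes passed the filter. The 24 that were bright on the arrays compared had 72 h values from -0.68 (Zfp810) to 0.27 (Zfp599). Their 48 h values ran from -0.76 (Zfp810) to 0.46 (9530077C05Rik). The highest of all 26 was a probe with a dim side, of 1810064F22Rik, with 0.88 at 72 h and 0.52 at 48 h. Among probes of genes named Zfp and a number, 518 passed the filter, and at 72 h 4 were past 2-fold higher (Zfp352, Zfp516, Zfp677 and Zfp809) and 2 lower, where 784 of all 27706 probes were higher and 280 lower. At 48 h 5 were higher and 6 lower, where 880 of all probes were higher and 332 lower. The longest run of bases that the rising probe shares with any other probe on the array is 13. Only probe sequences were compared, not whole transcripts, so the part of other mRNAs in its signal was not tested. By size and sign of the difference it ranked 525 of 27706 at 72 h. That ranking includes probes with a dim side, taken at their own signals, so it gives no exact place. Of the 36 probes of 2C genes, 31 were past 2-fold higher, and the 28 that were bright on the arrays compared had a median log2 difference of 4.32. The Zfp809 probe and the summed 2C level were both high on the same 2 arrays, and the part of 2C-like cells in its rise was not tested.

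**Figure D3:**
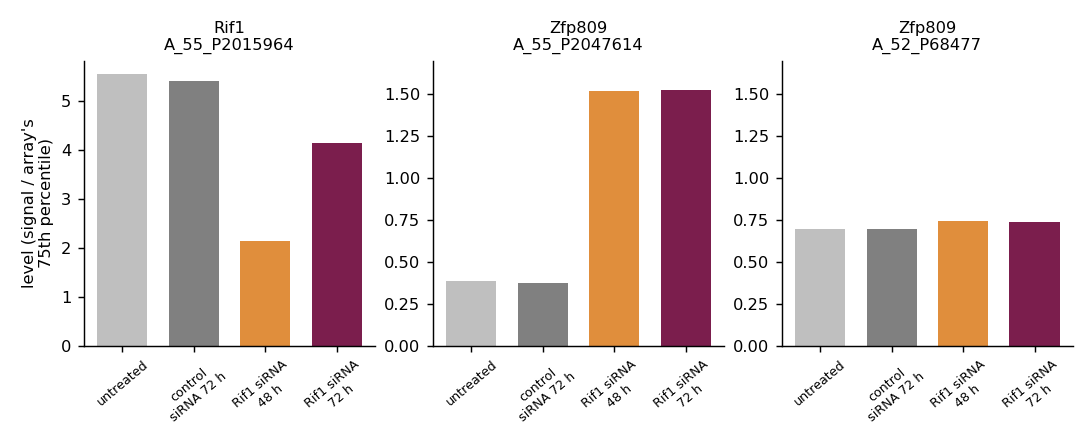
Levels (signal over the 75th percentile of the array, linear axis from 0) of the Rif1 probe and of both Zfp809 probes on the 4 arrays; the Rif1 panel has its own scale. The Zfp809 probe A_55_P2047614 is at 1.52 on both Rif1 siRNA arrays and at 0.387 and 0.374 on the others, whereas A_52_P68477 stays between 0.697 and 0.743.

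The other genes of this system were near their control level. Trim28, the corepressor that KRAB zinc finger proteins recruit, had levels of 43.4, 41.2, 37.3 and 39.5 on the untreated, control siRNA, 48 h and 72 h arrays, a difference of -0.06 at 72 h. Atf7ip, a partner that stabilizes Setdb1, had levels of 2.75, 2.50, 3.06 and 3.01, so that both Rif1 siRNA arrays were above the others. At 72 h Atf7ip was above control siRNA by 0.27 and above untreated cells by 0.13. Setdb1 differed by 0.16, and Morc3, an ATPase that silences endogenous retroviruses, by -0.08. None of these passed 1.5-fold.

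Kdm1a, the H3K4 demethylase also called Lsd1, was read at 22.7, 23.9, 22.8 and 22.2, and its 72 h difference was -0.11. Its only probe shares a run of 21 bases with another probe of the array. The control siRNA array was above the untreated array by 0.08, and the groups overlapped. Its deacetylase partners went to either side of 0. Hdac2 had levels of 0.287, 0.267, 0.323 and 0.319 and a 72 h difference of 0.26, and Hdac3 had 0.536, 0.569, 0.482 and 0.475 and a difference of -0.26. Both separated the Rif1 siRNA arrays from the others in opposite directions. Over the 5 genes of this group, with Hdac1 and the Kdm1a-associated zinc finger protein Zmym2, the median was -0.11 at 72 h and -0.08 at 48 h. With quantile normalization it was -0.003 at 72 h, and that of Kdm1a was -0.005, so that no direction is given for them.

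The H3K9 methyltransferases and the HP1 proteins that bind their mark were also within 1.24-fold. Ehmt2 (G9a) had levels of 35.0, 32.6, 28.6 and 28.0, a difference of -0.22 at 72 h (-0.11 with quantile normalization), with both Rif1 siRNA arrays lowest. Its partner Ehmt1 (GLP) had 14.8, 14.3, 15.4 and 15.0, a difference of 0.07. Suv39h1 and Suv39h2, which trimethylate H3K9, lay at 0.01 and 0.02. A second, far dimmer Suv39h2 probe gave -0.03. Among the HP1 genes, Cbx5 (HP1α) had levels of 1.72, 1.69, 1.52 and 1.44 and a difference of -0.23. Its second probe gave -0.03, so the probes differ by about as much as the arrays. Cbx1 (HP1β) lay at 0.01 and Cbx3 (HP1γ) at -0.08. The dimmer Cbx1 probes gave 0.16 and 0.13 at 72 h, and 0.34 and 0.16 at 48 h. With quantile normalization the median of the 3 HP1 genes at 72 h was 0.02 in place of -0.08, so that no direction is given for them at 72 h. At 48 h the brightest probes of all 3 were below 0, with a median of -0.15, or -0.13 with quantile normalization. The median over all probes that passed was itself -0.05 at 48 h.

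Of the histone chaperones, Chaf1a and Chaf1b encode subunits of CAF-1, which deposits histones behind the replication fork. Chaf1b had levels of 20.3, 18.9, 15.7 and 16.2, with both Rif1 siRNA arrays below the others and a 72 h difference of -0.22 (-0.14 with quantile normalization). A second Chaf1b probe, which overlaps the first on the transcript, gave -0.24. Chaf1a had levels of 5.17, 5.32, 4.79 and 5.04 and a difference of -0.08. Asf1a, which hands histones to CAF-1 and to the HIRA complex, had levels of 0.139, 0.138, 0.153 and 0.165 and a difference of 0.25, or 0.08 with normexp. Its paralog Asf1b, which is linked to proliferation, lay at -0.18 at 72 h and at -0.43 at 48 h. Daxx and Atrx, which deposit H3.3 at repeats, lay at -0.15 and 0.04. The median of the 6 chaperones was -0.12 at 72 h and -0.19 at 48 h. At 72 h it was -0.07 with quantile normalization, and with normexp it was -0.12, close to the median of all probes that passed under that correction.

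PRC1.6 is the variant Polycomb complex in which Mga with Max, and E2f6, contact DNA, and it silences germline genes in ES cells. Its 8 genes had a median of 0.00 at 72 h, with 4 above 0 and 4 below, and of -0.08 at 48 h, with 2 above 0 and 6 below. Pcgf6, the subunit that defines the complex, had levels of 4.49, 4.31, 4.00 and 4.55 and a difference of 0.08. Ring1, a catalytic E3 ligase, had 0.149, 0.154, 0.133 and 0.124 and a difference of -0.31, the lowest of the 38 genes. Max had 8.43, 9.35, 9.13 and 11.0 and a difference of 0.24 at 72 h, but -0.03 at 48 h. Rybp, which stimulates the ligase, had 14.8, 14.7, 15.0 and 15.3 and a difference of 0.06. The ligase Rnf2, the MBT-domain protein L3mbtl2, Mga and E2f6 lay between -0.20 and 0.09.

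PRC2 methylates H3K27 through Ezh2, with Eed and Suz12. All 3 genes were below 0 in both Rif1 siRNA comparisons, with 72 h values of -0.14, -0.22 and -0.06, and the signs held with normexp, with quantile normalization and with each array centered on its median. The median over all probes that passed was itself -0.05 at 72 h, and -0.12 with normexp, so that Suz12 lay close to it. The median of the 3 genes was -0.14 at 72 h, or -0.09 with quantile normalization. All 3 were also below 0 between control siRNA and untreated cells, by 0.03 to 0.16, so that part of the order of the arrays was there without Rif1 siRNA.

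Of the other repressors, Sumo2, which encodes the modifier that many of these proteins carry, was chosen here after its values were seen, because it has the most probes. Its 5 probes that passed were all lower in both Rif1 siRNA comparisons, from -0.31 to -0.16 at 72 h and from -0.34 to -0.19 at 48 h. Their median was -0.24 at 72 h and -0.31 at 48 h, or -0.14 and -0.20 with quantile normalization, and 2 of the 5 overlap on the transcript. Against untreated cells the control siRNA array was lower for 2 of the 5 and higher for 3. Ncl (nucleolin, which with LINE1 RNA and Trim28 represses Dux), Smchd1 (a repressor of Dux and of the inactive X) and Kdm5b (an H3K4 demethylase) lay between -0.03 and 0.10 at 72 h.

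Small differences of one sign were frequent. Both Rif1 siRNA arrays lay below both other arrays for 20 of the 38 genes (52.6%) and above them for 9 (23.7%), and the groups overlapped for 9. Over all probes the same held for 36.8% below and 22.9% above. With normexp background correction the shares below were 52.6% of the repressors and 55.4% of all probes, so the order of these shares turned with the correction.

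Members of PRC1.6 bind E2F sites and the E-box, so their letters were looked up in RefSeq promoter windows (GRCm38.p6) that run from 250 bases before to 50 bases after a start. Windows were found for 36 genes, 44 in all. The E2F letters TTTCCCGC, TTTGGCGC, TTTCGCGC and TTTGCCGC, searched on both strands, were in 5 of 44 windows (11.4%), those of Cbx3, Ezh2, Ncl, Suv39h1 and Suz12, against 2.26% of 32851 windows. The E-box CACGTG, which reads the same on both strands, was in 5 windows (11.4%), those of Cbx5, Chaf1a, Ehmt2 and Max, against 7.15%. The repressor windows had a median of 29.5 CpG and 66.3% GC, against 7 and 52.7% for all windows, and the part of base composition in these shares was not tested. A match of letters is not a site of binding. The windows of Ezh2 and Suz12 are printed, with the E2F letters in capitals, because they belong to 1 complex. The window of Eed, the third PRC2 gene and the one with the lowest 72 h value, holds none of these letters.
Ezh2 (chr6:47594981-47595280, minus strand): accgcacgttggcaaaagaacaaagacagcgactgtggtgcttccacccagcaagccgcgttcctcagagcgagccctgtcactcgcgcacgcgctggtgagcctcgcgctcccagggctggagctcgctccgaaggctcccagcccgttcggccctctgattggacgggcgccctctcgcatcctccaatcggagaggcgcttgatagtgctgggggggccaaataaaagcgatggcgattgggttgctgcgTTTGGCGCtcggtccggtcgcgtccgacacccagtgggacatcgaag
Suz12 (chr11:79992856-79993155, plus strand): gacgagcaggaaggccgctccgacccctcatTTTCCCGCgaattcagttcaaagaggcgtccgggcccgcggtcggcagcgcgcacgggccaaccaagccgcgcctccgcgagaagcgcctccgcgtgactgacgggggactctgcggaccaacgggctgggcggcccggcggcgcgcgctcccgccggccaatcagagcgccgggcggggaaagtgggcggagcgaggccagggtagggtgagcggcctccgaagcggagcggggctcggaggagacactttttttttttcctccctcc
In Ezh2 the letters lie close to the start and in Suz12 near the far end of the window.

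Other subunits and partners of the same complexes were not past 2-fold either, though their values ranged more widely than those of the listed repressors apart from Zfp809. At 72 h and at 48 h, 0 probes were past 2-fold among 30 probes of 19 genes of the CoREST and NuRD complexes, 22 probes of 12 genes of HUSH and H3K9 methylation, 45 probes of 25 further Polycomb genes, 27 probes of 12 further histone chaperones and 25 probes of 15 genes of the SUMO pathway, against 3.84% and 4.37% of all probes. The medians of these lists at 72 h lay between -0.10 and 0.02. Among probes bright on the arrays compared, the lowest was of Phf19, a PRC2 accessory subunit, with -0.59 at 72 h and -0.76 at 48 h. The highest was of Bcorl1, a PRC1 corepressor, with 0.69 and 0.62, whereas a second Bcorl1 probe gave 0.21 and 0.15. The lowest and the highest probe were past 1.5-fold at both times, which no repressor probe but Zfp809 probe A_55_P2047614 was.

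Among genes that such complexes hold silent, the germline list held calls at both times. Of 16 probes of germline genes known as PRC1.6 targets, 3 were past 2-fold higher at 72 h and the same 3 at 48 h, against 3.84% and 4.37% of all probes, and 0 were lower. These were Dazl, an RNA-binding protein of germ cells, with levels of 0.406, 0.274, 0.917 and 0.828 and a 72 h difference of 1.59, Slc25a31, a testis ADP/ATP carrier, with 1.15, and Tdrkh, a piRNA pathway protein, with 1.01. The list median was 0.27 and its lowest value -0.79 (Hormad1), so the list did not move as one. Of 16 probes of developmental genes held by PRC2, 1 was past 2-fold at 72 h (Cdx2, a trophoblast factor, 1.08, with levels of 0.0344, 0.0500, 0.0721 and 0.106) and 0 at 48 h, which is near the share of all probes. Its median was 0.24 at 72 h and 0.41 at 48 h against control siRNA, and -0.30 for control siRNA against untreated cells.

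Dux, the factor that turns on many 2C genes and that several of the repressors silence, was dim. Probe A_55_P1983444 had levels of 0.0188, 0.0148, 0.0435 and 0.0377 and was well above background on the Rif1 siRNA arrays only. It was at least 2.38-fold higher at 72 h and at least 2.74-fold higher at 48 h than with control siRNA, where the lowest level well above background of the control array stands for the dim value. A second Dux probe, A_55_P2183061, had 0.0220, 0.0219, 0.0283 and 0.0285, which is 0.38 at 72 h.

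**Figure D4:**
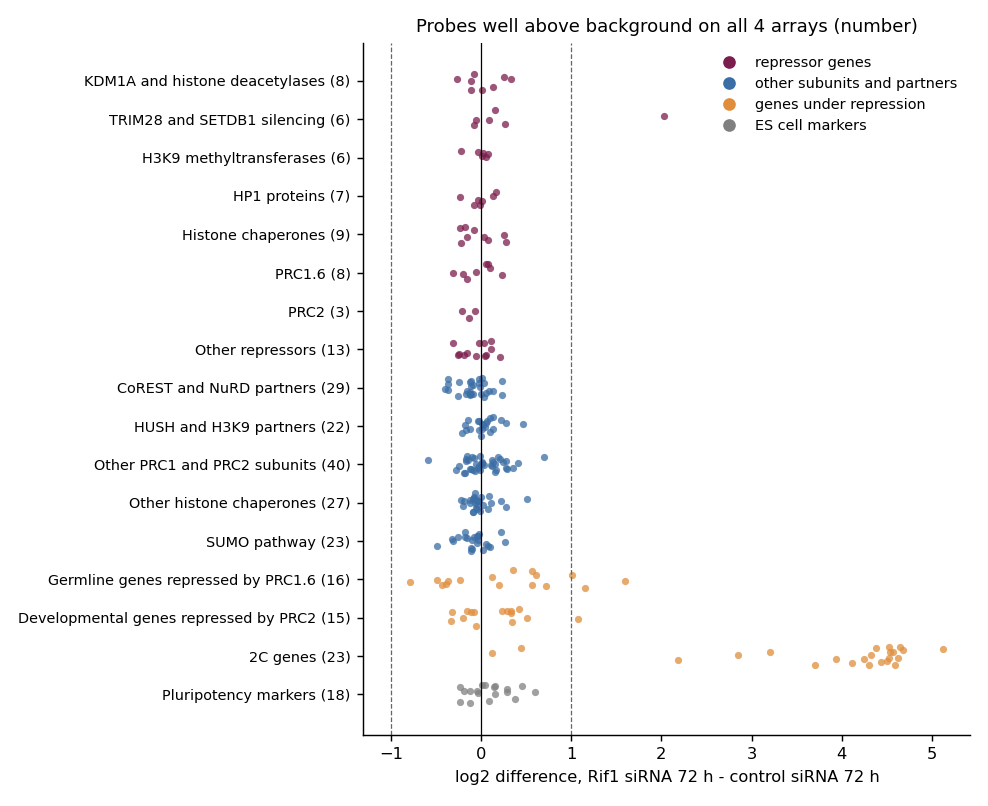
Log2 differences, Rif1 siRNA at 72 h against control siRNA at 72 h, of single probes well above background on all 4 arrays, for the repressors by role (purple), other subunits and partners (blue), genes under repression (orange) and pluripotency markers (gray); points are spread vertically for legibility and dashed lines mark 2-fold. Repressors and partners lie within 2-fold except for 1 Zfp809 probe at 2.03, whereas most 2C genes lie beyond 2.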

How the data were processed

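Gene expression in E14tg2a mouse ES cells was measured on 4 one-color Agilent arrays of one slide, 1 per condition. The authors deposited the output of Agilent Feature Extraction 11.5.1.1 (per the submitters' notes), whose processed signal is an intensity after background subtraction and detrending. They also deposited a table of each processed signal as a ratio to 1 constant per array, close to its 75th percentile, on a linear scale and not centered.

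From the intensities, log2 of the signal minus log2 of the array's 75th percentile over 43020 non-control spots was taken. Outlier spots were left out, 120 to 152 per array, and 0 were saturated. Repeated spots were averaged as log2 values. A probe passed the filter if it reached the 20th percentile on 1 or more arrays and was detected or compromised on 2 or more of 4, and 27706 of 39429 passed. A call was a difference past 2-fold. A dim side was set at the array's lowest level well above background, 0.00543 to 0.0236, or its own signal if higher. Of the 63 accessions of the repressor probes, 56 matched RefSeq.

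The genes with values in the text were those past 2-fold, the 10 largest differences at 72 h and those the study names, 18 in all; others served as extremes or for a role. Members and lists were chosen with earlier results of these data known. The second experiment mentioned in the methods was not analysed here. Only the 2-fold cut was tried on simulated arrays, with changes far beyond the cut. The scaling, the filter, the rule for dim signals and the choice of a gene's probe were not tested in this way. Python 3.11.15, pandas 2.3.3, numpy 2.4.6, R 4.3.3 and limma 3.58.1 were used.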

Additional observations from a re-analysis of the deposited data

How the results depend on the processing

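No paired analysis was possible because there was 1 array per condition. The alternatives were the deposited ratios, quantile normalization, normexp (offset 50), outlier spots kept, no filter, only bright probes, a 1.5-fold limit, the median over a gene's probes and, for named genes, the untreated array as control. The count of repressor probes past 2-fold was the same under each setting tried for it, in all 4 comparisons. The median over the genes at 72 h was -0.06 under the settings other than quantile normalization and the median over a gene's probes (-0.05), and -0.00013 with quantile normalization. At 48 h it lay between -0.11 and -0.05. A value counted as moved beyond 0.257 (log2), which is about the size of the largest values of the named genes other than Zfp809, so that this limit says little about how stable they are. Beyond it was 1 of 108 recomputed values of the 18 named genes, that of Zfp809 as the median over its 2 probes (1.05). Of the smaller values, 3 changed sign: Cbx3 (0.02) and Trim28 (0.05) with quantile normalization, and Cbx1 (-0.07) with the untreated array as control. Others moved by over 1.5 times within the limit, among them Ehmt1 (0.15), Chaf1a (-0.04), Pcgf6 (0.13) and Rybp (0.14) with quantile normalization, and Atf7ip (0.13), Hdac2 (0.15) and Max (0.39) with the untreated array. Without Zfp809 the recomputed values lay between -0.37 and 0.39. The counts of genes on one side of both other arrays were recomputed under settings chosen after seeing the data. The number above was 5 in place of 9 with each array centered on its median over all probes that passed, and between 7 and 12 otherwise; the number below was between 17 and 23.

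The limits are those of 1 array per condition. The control array was harvested at 72 h, so for the 48 h array treatment and time cannot be told apart. Rif1 mRNA was at 76.5% of control on the 72 h array. mRNA levels give no protein levels, and cell mixtures were not resolved.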

Other observations

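The listed gene Resf1, a partner of Setdb1 in silencing of endogenous retroviruses, has no probe under this name. By accession it is read by 2 probes that the array calls 2810474O19Rik. Probe A_51_P277795 had levels of 4.12, 4.48, 4.64 and 4.47 on the untreated, control siRNA, 48 h and 72 h arrays, a log2 difference of 0.00 at 72 h against control siRNA. Probe A_55_P2006604 had levels of 0.220, 0.232, 0.236 and 0.217, a difference of -0.10. Of the repressor probes, 14 of 63 share a run of 16 or more bases with another probe of the array and 5 share 20 or more. These are Sumo2 probes A_55_P2156002 (31 bases) and A_55_P2009206 (20) and the only Kdm1a probe (21). The others are the representative probes of Ehmt1 and Suv39h2 (20 each). Runs of 12 bases are shared with 99 probes by the Kdm1a probe and with 132 by the Suv39h2 probe. The part of other transcripts in their signals was not tested.

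Ezh1, the paralog of Ezh2, was the only gene of the further subunits and partners with a probe past 2-fold between control siRNA and untreated cells. That probe, A_55_P2017090, had levels of 0.103, 0.0492, 0.0353 and 0.0443, and 3 other Ezh1 probes differed by less.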
